A study of Mus musculus with 6 samples.

Results

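*Rapgef5*, *Wdr33*, *Rnf11*, *Caprin1*, *Csf1r*, *Pnpla6*, *Tor2a*, *Mmp12* and *Serpina3m* were among the genes with the largest isoform shifts between the brains of *Nxf1* congenic littermates. These 9 genes, of 7766 with values on the arrays, were chosen by the size of their scores in the authors' own scoring of the same arrays, which placed an event of each at the upper or the lower end. Together they had 20 alternative RNA events, of 12948 with values. An event is a choice between paths labelled exclusion and inclusion, and the arrays carry separate probe sets for the 2 paths. For a cassette exon the exclusion path skips the segment and the inclusion path keeps it. For alternative starts and ends the labels are kept as deposited, and which start or end each stands for was not determined.

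Whole brain RNA came from 6 animals of a B6.CAST congenic line, 3 homozygous for the B6 allele of *Nxf1* and 3 homozygous for the CAST allele, and each RNA was hybridized to 1 Affymetrix MJAY splicing-sensitive array. The animals formed 3 same-sex littermate pairs of opposite genotype. In pair 1, female, both animals were 46 days old. In pair 2, male, the B6 homozygote was 22 days old and the CAST homozygote 23 days old, and in pair 3, female, both were 23 days old. *Nxf1* encodes the major mRNA export factor, and the comparison asked whether its CAST allele alters alternative RNA processing across the genome. In a congenic line the neighbouring part of chromosome 19 also comes from CAST, and whole brain mixes all of its cell types. The 9 genes lie on chromosomes 2, 4, 8, 9, 12 and 18, with *Caprin1* and *Tor2a* on chromosome 2, *Rapgef5* and *Serpina3m* on chromosome 12 and *Wdr33* and *Csf1r* on chromosome 18, so that 0 of them lie on chromosome 19.

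The deposited table gives, for each path, 1 intensity for a set A and 1 for a set B, each a pool of several arrays. It does not name the sets by genotype. It defines its score as mutant over wild type, the sign of that score follows set B over set A, and the Methods divide CAST by B6, so set B was likely the CAST homozygotes. The exclusion to inclusion ratio of set B was divided by that of set A, and the log2 of the result is called the shift of the event. A shift above 0 means relatively more of the path labelled exclusion in set B, and a shift of 1 is a 2-fold change of the ratio. Different probe sets read the 2 paths, so the level of one path is not set against that of the other, and only the change between the sets is read. Where intensities are summed over paths and events, the brightest probe sets weigh most, and the sum is no measure of gene level. No intensity per animal was used here, so there is no replicate error and no test, every shift is a description of these pooled sets, and a single animal could set a pooled value. With 6 arrays the precision is limited. The study followed up splice sites with extreme array scores by gel assays. Sites unlinked to *Nxf1* and without an IAP retroviral insertion showed no nominally significant difference between the alleles there. Which genes those were is not given here. The intensities are whole numbers, and rounding alone can move the most shifted events of the 9 genes by at most 0.035.

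A gene can make several RNAs by starting at different promoters, by keeping or skipping an exon, or by joining an exon at different splice sites. Such choices can change the protein, or only the ends of the RNA, and brain is known for rich alternative splicing. Among the 9 genes, *Wdr33* and *Caprin1* encode proteins that bind RNA, *Rapgef5*, *Rnf11* and *Csf1r* act in signalling, *Pnpla6* and *Tor2a* encode proteins of the endoplasmic reticulum, and *Mmp12* and *Serpina3m* encode a secreted protease and a member of a family of protease inhibitors.

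The shifted event of *Rapgef5* was a choice of transcription start, and RefSeq (GRCm38.p6) lists 2 starts for this gene with sequence, 17402 bases apart. Their upstream windows are shown because they differ strongly in base composition. Each window covers the 250 bases before a start on the + strand, and capitals mark every CG dinucleotide, which reads the same on both strands.
Rapgef5 first start, chr12:117516276-117516525: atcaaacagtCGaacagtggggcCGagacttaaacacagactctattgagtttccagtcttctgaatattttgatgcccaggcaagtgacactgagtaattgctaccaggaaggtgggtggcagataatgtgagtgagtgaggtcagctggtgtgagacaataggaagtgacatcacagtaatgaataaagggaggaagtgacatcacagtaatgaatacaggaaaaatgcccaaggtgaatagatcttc
Rapgef5 second start, chr12:117533678-117533927: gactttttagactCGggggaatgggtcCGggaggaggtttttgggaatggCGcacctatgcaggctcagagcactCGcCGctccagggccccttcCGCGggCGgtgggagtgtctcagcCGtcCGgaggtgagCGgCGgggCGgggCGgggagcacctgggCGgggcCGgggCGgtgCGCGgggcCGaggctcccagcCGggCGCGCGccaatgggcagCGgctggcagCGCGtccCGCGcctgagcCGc

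The first window holds 2 CG dinucleotides and is 43.6% G or C, and the second holds 30 and is 74.8% G or C. Over 32851 RefSeq promoter windows of this length the median was 6 CG dinucleotides, and 92.1% held at least 1. The array event spans 59076 bases, and its positions do not follow this assembly. Whether the event is the choice between these 2 starts, and which path would use which, was therefore not determined.

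Across all events the absolute shift had a median of 0.18, with 0.45 at the 90th and 0.77 at the 99th percentile. Of all events, 0.224% were past 1 in either direction (29 events), with 0.1% above 1 and 0.124% below -1. At 0.5 the share was 7.34% (950 events), with 4.6% above 0.5 and 2.73% below -0.5. Of the 20 events of the 9 genes, 10 were past 1, the largest of each gene and a second of *Serpina3m*. This count follows from how the genes were chosen, and nothing is read from it. The shifted events lay above 0 in 4 genes (*Serpina3m*, *Mmp12*, *Tor2a* and *Pnpla6*) and below 0 in 5 (*Rapgef5*, *Wdr33*, *Rnf11*, *Csf1r* and *Caprin1*). They were 3 cassette exons, 3 alternative starts, 2 alternative 3' splice sites and 1 complex event.

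**Figure D1:**
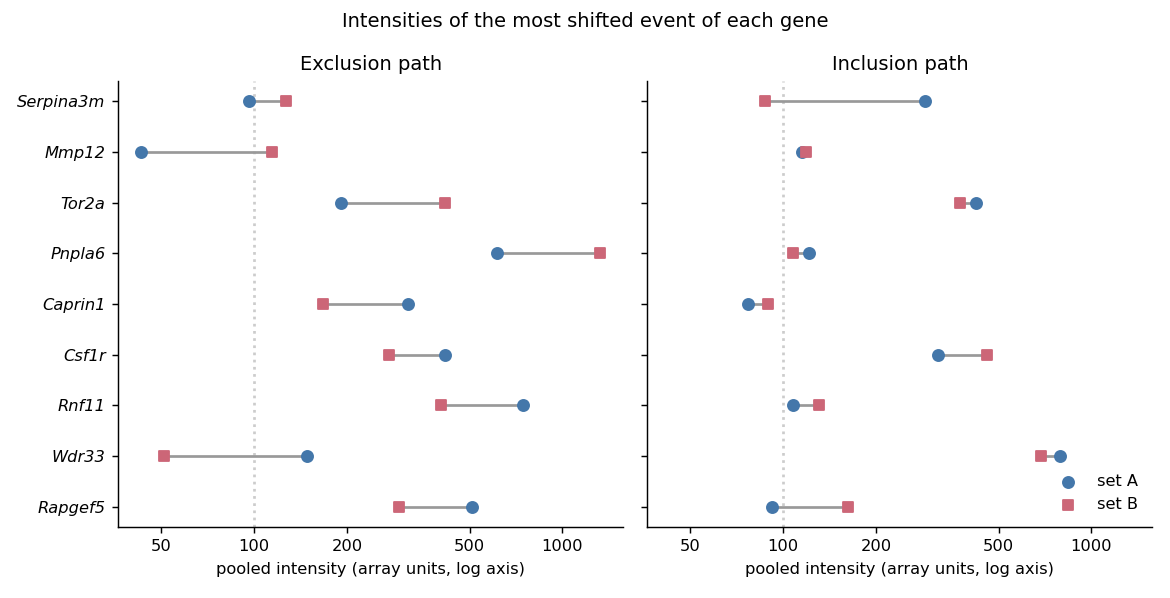
Pooled intensities (array units, log axis) of the exclusion path (left) and the inclusion path (right) for the most shifted event of each gene, set A as circles and set B as squares. Grey lines join the sets and the dotted line marks an intensity of 100. In 7 of the 9 events the exclusion path moved more than the inclusion path, and *Serpina3m* has the longest line, from 288 to 87 on the inclusion path.

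*Wdr33* encodes the subunit of the cleavage and polyadenylation specificity factor that takes part in recognising the polyadenylation signal. Its shifted event was a cassette exon (chromosome 18, 31963888 to 31988906). The exclusion path read 148 in set A against 51 in set B, and the inclusion path 790 against 689. The skipped form was thus lower in set B, while the included form was 0.20 lower on the log2 scale. The shift was -1.34, a 2.53-fold lower ratio, and ranked 7 by size among all events. The exclusion intensity of 51 is close to the floor of the table, and 0.170% of events had a lowest intensity no higher than this. With 50 added to every intensity the shift was -0.79.

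The other events of *Wdr33* lay further along the gene and did not overlap the cassette exon. A retained intron (31993388 to 31995037) had exclusion intensities of 921 in set A against 967 in set B and inclusion intensities of 1178 and 1110, a shift of 0.16. An alternative end (31995135 to 32048794) had exclusion intensities of 1026 and 1048 and inclusion intensities of 82 and 73, a shift of 0.20. Both shifts were above 0 and near the median size of all events. Their signs are not set against that of the cassette exon, since the path labels differ in meaning between event types.

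*Caprin1* encodes an RNA-binding protein of stress granules and of neuronal RNA granules. Its shifted event was a cassette exon (chromosome 2, 103623342 to 103636908), with exclusion at 316 in set A against 167 in set B, and inclusion at 77 against 89. As in *Wdr33*, the skipped form was lower in set B, here from a brighter level, and the included form was dim in both sets. The shift was -1.13, a 2.19-fold lower ratio, rank 14.

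*Caprin1* had 4 other events, the most of the 9 genes, and they allow the cassette exon to be set beside the rest of the RNA. The alternative 3' splice site (103615655 to 103615766) had exclusion intensities of 800 and 900 and inclusion intensities of 814 and 695, a shift of 0.40. The alternative start (103637097 to 103637754) had exclusion intensities of 406 and 348 and inclusion intensities of 535 and 570, a shift of -0.31. These were the largest of the other *Caprin1* shifts, one in each direction, and both lay between the median and the 90th percentile of all events. The complex event had a shift of 0.28 and the alternative end of 0.10. Summed over the 5 events, *Caprin1* intensity came to 7017 for set A against 6606 for set B, a log2 difference of -0.09. Most of this sum comes from the brighter other events. The geometric mean of the 2 paths of the cassette exon alone differed by -0.36 on the log2 scale.

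*Rapgef5* encodes an exchange factor that activates the small G proteins Rap1 and Rap2. Its single event was the alternative start (chromosome 12, 118754951 to 118814027), with exclusion at 510 in set A against 295 in set B, and inclusion at 92 against 162. The paths moved in opposite directions by nearly the same amount, -0.79 and 0.82 on the log2 scale, so the geometric mean of both paths differed by 0.01. The shift was -1.61, a 3.04-fold lower ratio and the largest below 0 on the array. Of the 9 shifted events it was the one with the most nearly equal and opposite changes of its paths.

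*Rnf11* encodes a small RING-type adaptor of ubiquitin ligases that is part of the complex around the ubiquitin-editing enzyme Tnfaip3. Its single event was an alternative start (chromosome 4, 109148866 to 109149588). Exclusion gave 746 in set A against 403 in set B, and inclusion gave 108 against 131. Most of the change lay on the exclusion path, which was 0.89 lower in set B on the log2 scale. The shift was -1.17, a 2.25-fold lower ratio, rank 12.

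*Csf1r* encodes the receptor for the cytokines Csf1 and Il34, which in brain is carried by microglia and needed for their survival. Its shifted event was an alternative 3' splice site (chromosome 18, 61265318 to 61265552). In set A the exclusion path gave 415 and the inclusion path 318, and in set B they gave 273 and 458. Exclusion was lower and inclusion higher in set B, by -0.60 and 0.53 on the log2 scale, with the ratio at 1.31 in set A and 0.596 in set B. The shift was -1.13, a 2.19-fold lower ratio, rank 13. All 4 intensities were 273 or higher, which made it the brightest of the 9 shifted events by its lowest intensity.

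The other event of *Csf1r* was an alternative end (61278721 to 61285490). Its exclusion intensities were 434 and 459 and its inclusion intensities 191 and 218, a shift of -0.11. Summed over both events, *Csf1r* intensity came to 1358 for set A against 1408 for set B. Of 6 microglia markers 2 had events, *Itgam* and *P2ry12*, with intensities from 100 to 258 and a sum of 1037 in set A and 1032 in set B. In the wider list of the Csf1r pathway and microglia, *Trem2*, a receptor of microglia, read 282 and 243 in set A against 304 and 281 in set B, and *Irf8*, a transcription factor of microglia, 191 and 152 against 206 and 180. Both genes were thus slightly higher in set B on each path, like *P2ry12* and the alternative end of *Csf1r*. *Itgam* went the other way, with 151 and 258 in set A against 146 and 235 in set B. Whether a different number of microglia plays a part in the *Csf1r* shift was not tested, and in whole brain fewer cells of a type and less RNA per cell cannot be told apart.

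*Pnpla6* encodes neuropathy target esterase, a lysophospholipase of the endoplasmic reticulum that neurons need. Its shifted event was a cassette exon (chromosome 8, 3515556 to 3516680). The exclusion path read 614 in set A against 1330 in set B, and the inclusion path 121 against 108. The skipped form was 1.12 higher in set B on the log2 scale. The shift was 1.28, a 2.43-fold higher ratio, rank 10.

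This cassette exon lies inside the span of an alternative start event of *Pnpla6* (3515383 to 3517076), with which it shares 1124 bases. The start event had exclusion intensities of 244 and 242 and inclusion intensities of 404 and 428, a shift of -0.10. The start choice around the exon thus showed no change of comparable size in the same RNA.

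*Tor2a* encodes a torsin, an ATPase of the endoplasmic reticulum lumen, and RefSeq lists the gene also as Prosalusin. Its single event was an alternative 3' splice site (chromosome 2, 32612970 to 32614276). Exclusion gave 192 in set A against 416 in set B, and inclusion gave 423 against 375. The shift was 1.29, a 2.44-fold higher ratio, rank 9 among all events and rank 1 among the 803 alternative 3' splice sites. *Tor2a* and *Pnpla6* were alike in their changes, with exclusion higher by 1.12 in both and inclusion lower by less than 0.2 in both, although their intensities differed.

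*Mmp12* encodes macrophage metalloelastase, a secreted protease of the matrix metalloproteinase family. Its shifted event was a complex event (chromosome 9, 7347538 to 7348584). In set A the exclusion path gave 43 and the inclusion path 115, and in set B they gave 114 and 119. The shift was 1.36, a 2.56-fold higher ratio, rank 6. It rests on the exclusion intensity of 43 in set A, which was the lowest value of any event in the table, and with 50 added to every intensity it was 0.78.

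All events of *Mmp12* were dim, with intensities from 43 to 135. The alternative start (7344396 to 7347490) had exclusion intensities of 67 and 80 and inclusion intensities of 79 and 74, a shift of 0.35. The alternative end (7353049 to 7369499) had exclusion intensities of 74 and 80 and inclusion intensities of 102 and 135, a shift of -0.29. Of the 6 intensities of the gene in each set, 5 were higher in set B.

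*Serpina3m* belongs to a cluster of mouse serpins related to human antichymotrypsin. Its shifted event was the alternative start (chromosome 12, 105576735 to 105627418). The exclusion path read 96 in set A against 127 in set B, and the inclusion path 288 against 87. The shift was 2.13, a 4.38-fold higher ratio and the largest of all events. Among the shifted events, it was the one in which the inclusion path clearly carried the change, by -1.73 on the log2 scale.

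An alternative end of *Serpina3m* (105579360 to 105632468) had exclusion intensities of 564 and 194 and inclusion intensities of 202 and 205. Its shift of -1.56 ranked 4 among all events. Its sign is not set against that of the start, since which start or end each path label stands for was not determined. In each event 1 path was much lower in set B, inclusion at the start (-1.73 on the log2 scale) and exclusion at the end (-1.54), and the remaining path differed by 0.40 and 0.02. Both shifts are values of pools, and whether all the animals of a set shared them cannot be told from these intensities. Summed over both events, *Serpina3m* intensity came to 1150 for set A against 613 for set B, the largest difference of summed signal among the 9 genes (-0.91 on the log2 scale). This sum is made of the same intensities that give the 2 shifts, so it is no separate measure of gene level.

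The events of *Serpina3m* cover 50683 and 53108 bases, and share 48058, whereas the RefSeq gene is 7103 bases long. Its neighbours in RefSeq are *Serpina3k* and *Serpina3n*, which had 0 events with values under those names. Whether related serpins share signal with these probe sets was not tested, so the gene behind each path is uncertain. *Serpina3f*, the other *Serpina3* gene with events, had shifts of -0.11 for its start and -0.08 for its end. At its start exclusion gave 845 in set A against 817 in set B, and inclusion 277 against 290.

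**Figure D2:**
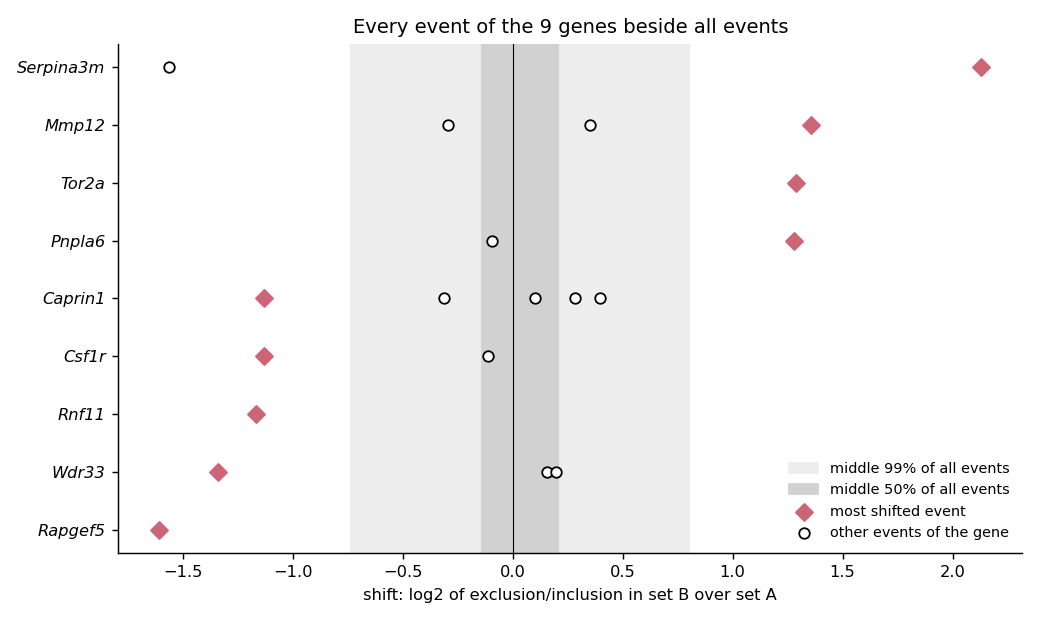
Shift (log2 of the exclusion to inclusion ratio in set B over set A) of all 20 events, with the most shifted event of each gene as a diamond and its other events as open circles. The shaded bands hold the middle 50% (-0.14 to 0.21) and the middle 99% (-0.74 to 0.80) of all events. All other events lie inside the wider band, apart from the alternative end of *Serpina3m* at -1.56.

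Events of 6 genes could be compared within the same gene, since *Rapgef5*, *Rnf11* and *Tor2a* had a single event each. The 11 other events had a median absolute shift of 0.28, with 6 above 0 and 5 below. Of these, 4 were smaller than the median of all events and 1 was past 0.5, the alternative end of *Serpina3m*. In *Wdr33*, *Caprin1*, *Csf1r*, *Pnpla6* and *Mmp12* no other event was past 0.5. Of all events 7.34% were past 0.5, and the shifted event is by definition the largest of its gene. Nothing further is therefore read from this.

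The exclusion path moved more than the inclusion path in 7 of the 9 shifted events, against 13 of the 19 events past 1 in other genes and 56.4% of all events. The exceptions were *Rapgef5*, where both moved about equally, and *Serpina3m*. The paths moved in opposite directions in 7 events and in the same direction in *Wdr33* and *Mmp12*. Over all events the median change was 0.02 for the exclusion path and -0.02 for the inclusion path.

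**Figure D3:**
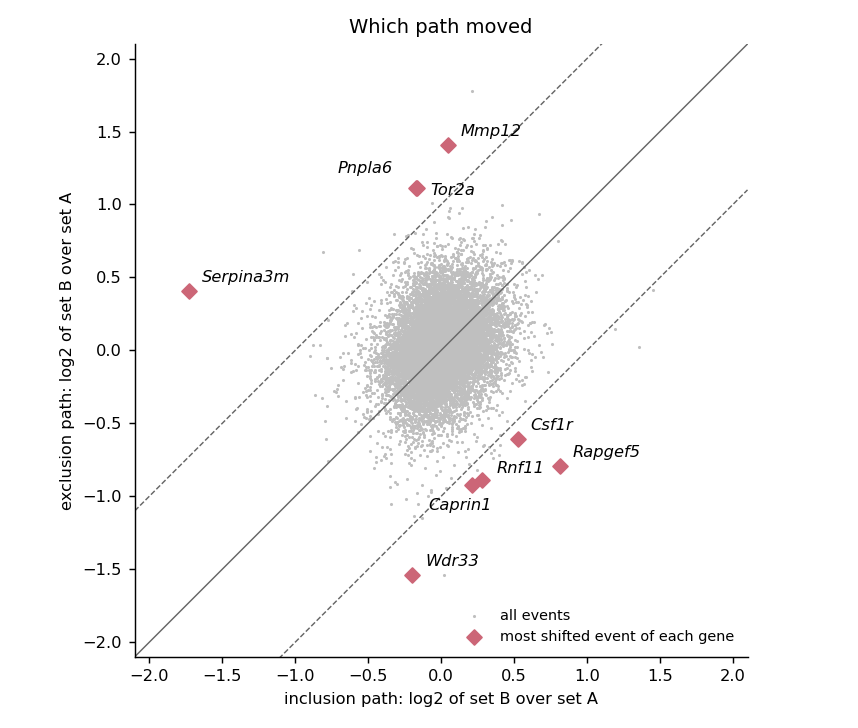
Change of the exclusion path (vertical axis) against that of the inclusion path (horizontal axis), each as log2 of set B over set A, for all events (grey) and the most shifted event of each gene (diamonds). On the solid line the ratio is the same in both sets and the dashed lines mark a shift of 1 in either direction. *Serpina3m* stands apart at -1.73 on the horizontal axis, and *Pnpla6* and *Tor2a* nearly coincide.

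Signal level differed widely among the shifted events. The lowest of the 4 intensities was under 100 in 5 of them (*Mmp12*, *Wdr33*, *Caprin1*, *Serpina3m* and *Rapgef5*) and 108 to 273 in the other 4 (*Pnpla6*, *Rnf11*, *Tor2a* and *Csf1r*). Of all events 20.8% had an intensity under 100. Among these dim events 11 were past 1 (0.409%), against 12 of those with a lowest intensity from 100 to under 200 (0.252%). From 200 to under 500 there were 4 (0.0971%), and at 500 or more 2 (0.146%). The lowest intensity is 1 of the 4 that make the shift, so a fall on a path also moves an event to a dimmer class. The part of signal level in the shifts was not tested.

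**Figure D4:**
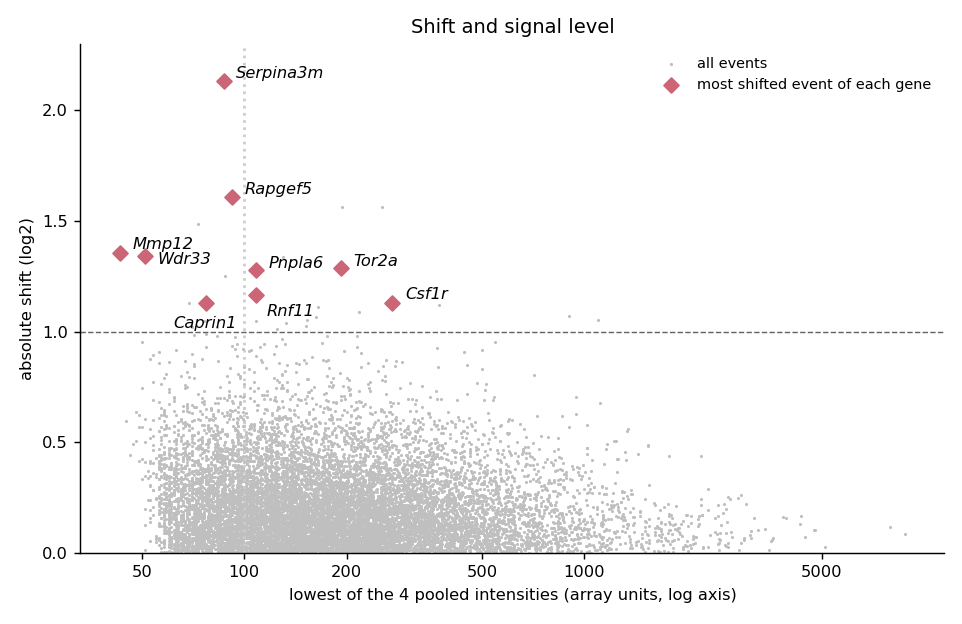
Absolute shift (log2) against the lowest of the 4 pooled intensities of an event (array units, log axis), for all events in grey and the most shifted event of each gene as diamonds. The dashed line marks a shift of 1 and the dotted line an intensity of 100. *Mmp12* and *Wdr33* sit at the dim end, at 43 and 51, and *Csf1r* is the brightest at 273.

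The names of splice site and cassette events carry a number that appears to be the length of the alternative segment in nucleotides. For retained introns the positions span that number plus 2 in 93.8% of 1061 events. Read in this way, the segments of *Caprin1* (66), *Csf1r* (96) and *Mmp12* (57) are multiples of 3, and those of *Wdr33* (227), *Pnpla6* (59) and *Tor2a* (85) are not. Multiples of 3 made up 53.2% of the numbered cassette exons and 28.4% of the alternative 3' splice sites. Whether these segments lie in coding sequence was not determined.

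The 9 genes were chosen by the authors' scores, and by the size of the shift they were not set apart from events of other genes. By the pooled intensities, *Caprin1* (-1.13) was the smallest of the shifted events. Just inside it below 0 stood *Csf1r* (-1.13), *Rnf11* (-1.17) and an alternative end of *Lyz1* (-1.34), and just outside a cassette exon of BC049762 (-1.11), a cassette exon of uc009jfe-1 (-1.09) and an alternative end of *Wdr8* (-1.06). Of the 14 events with a shift at least as large as that of *Caprin1*, 4 belonged to other genes. They were *Lyz1* and, named after their values were seen, *Gpnmb* (1.56), uc009uap-1 (1.49) and *Ccnd2* (1.25). *Gpnmb* encodes a transmembrane glycoprotein of phagocytic cells, and exclusion of its cassette exon gave 254 in set A against 870 in set B.

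Genes that work with the 9 or belong to their families were listed to see how their own events moved, without the 9 themselves. Of 148 listed genes 66 had events, 133 in all, with a median absolute shift of 0.17 and 7.52% past 0.5. Over all events these values were 0.18 and 7.34%. The listed genes thus stood near the background as a whole.

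Among the cleavage and polyadenylation factors that act with Wdr33, 10 of 19 genes had 20 events, 1 above 0.5 and 1 below -0.5. *Fip1l1*, a subunit of the same complex as Wdr33, had a cassette exon at 0.61, with exclusion at 95 in set A against 159 in set B. *Cpsf6*, a subunit of cleavage factor I, had a cassette exon at -0.59, with exclusion intensities of 878 and 459. These run in opposite directions, and the median absolute shift of the list was 0.17.

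Among the ubiquitin ligases and partners of Rnf11, 10 of 15 genes had 17 events, 1 above 0.5 and 3 below -0.5. The ligase gene *Nedd4l* had a complex event at -1.05, with inclusion at 1096 in set A against 2509 in set B and exclusion at 4582 against 5062. *Tax1bp1*, an adaptor of the Tnfaip3 complex, had an alternative 5' splice site at -0.84, and the ligase gene *Wwp1* a cassette exon at -0.57. The median absolute shift of 0.26 was the highest of the 9 lists, and *Nedd4l* was the only listed gene with an event past 1.

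Among the stress granule partners of Caprin1, 9 of 15 genes had 27 events with a median absolute shift of 0.18, 1 above 0.5 and 1 below -0.5. *Eif4g1*, a scaffold of translation initiation, had a cassette exon at 0.89, with exclusion intensities of 95 and 154. *Tial1*, an RNA-binding protein of stress granules, had a cassette exon at -0.79, with exclusion intensities of 345 and 182.

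For the Rap and Ras regulators around Rapgef5, 14 of 20 genes had 29 events with a median absolute shift of 0.14. The largest was an alternative end of *Sipa1l3*, which encodes a Rap GTPase activating protein, at -0.52. In the Csf1r pathway and microglia list, 7 of 21 genes had 11 events with a median of 0.13, and the ligand gene *Csf1* had an alternative 3' splice site at 0.53. No event was past 0.5 among 10 of phospholipase genes related to *Pnpla6*, 7 of torsins and cofactors, 5 of matrix metalloproteinases and inhibitors or 7 of serpins. Their median absolute shifts were 0.20, 0.18, 0.10 and 0.10 in the same order.

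**Figure D5:**
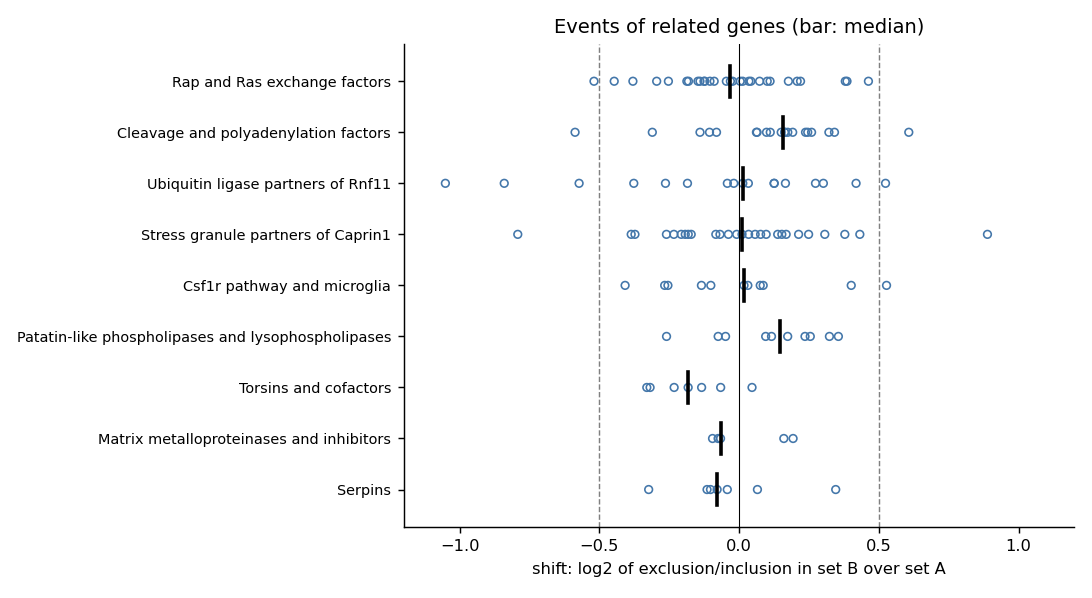
Shift (log2 of the exclusion to inclusion ratio in set B over set A) of each event in the 9 lists of related genes (open circles), with the list median as a black bar. Dashed lines mark shifts of 0.5 in either direction. The lists spread around 0, and *Nedd4l* at -1.05 is the event farthest from it.

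The tissue label was checked against cell type markers. Of the neuron markers 4 of 6 had events, with intensities from 421 to 12087, all 5 astrocyte markers had events, with intensities from 113 to 10330, and 3 of 5 oligodendrocyte markers, with intensities from 279 to 11314. Their summed intensities differed between the sets by -0.06, 0.05 and -0.04 on the log2 scale. Of the endothelium markers 2 of 4 had events and of the choroid plexus markers 1 of 3, with larger differences of -0.08 and -0.10. Blood and liver markers had 0 events, so that these could not be checked.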

How the data were processed

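RNA of 6 brains was hybridized to MJAY arrays, and the submitters' processing notes name Affymetrix Power Tools. The authors deposited pooled exclusion and inclusion intensities for sets A and B, as whole numbers on a linear scale. Normalization, background correction and genome assembly are not given in the sources used here, and positions are as in the table. Separation scores and q-values of the authors' own comparisons are also in the table. They enter here through the choice of the 9 genes and through the sign that made set B likely CAST, and their values are neither reported nor compared.

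Paths were joined into events by name. In the rows of an inclusion path the intensities of the 2 paths are exchanged, in 12497 of 12497 events with 1 path of each kind, so the exclusion path was used, or the path with the largest absolute shift where an event had none. The 54 events without values were left out. No offset, filter or centring was applied.

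The 9 genes and the lists of related genes and markers were chosen with earlier results of these data known. Named are every event of the 9 genes, at most 3 events past 0.5 of each list and the 3 events on each side of the smallest shift. Values are also given, outside this rule, for *Gpnmb*, uc009uap-1, *Ccnd2*, *Trem2*, *Irf8*, *Serpina3f* and the microglia markers *Itgam* and *P2ry12*. Offsets of 16 and 50, a minimum intensity of 100, the columns of the standard comparison, median centring and other units of counting were tried. The log2 formula was tested on simulated intensities without noise, which does not test the joining of paths or values near the floor. Primer sequences of the study are not reported here. Python 3.11.15, numpy 2.4.6, pandas 2.3.3 and matplotlib 3.10.9 were used.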

Additional observations from a re-analysis of the deposited data

How the results depend on the processing

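Of the shifted events of the 9 genes, none changed sign under the alternatives that gave a value. A minimum intensity leaves each value as it is, and centring moves shifts past 1 by only 0.03, so neither could change a sign. The columns of the standard comparison, and the path with the largest absolute shift, gave the same shifts for these events. An offset cannot change the sign where the paths moved in opposite directions, as in 7 of the 9 events. The unchanged signs were thus nearly fixed in advance, and nothing is read from them. With 16 added to every intensity the median absolute shift was 1.11 for the shifted events, 0.26 for the other events of the 9 genes and 0.15 for the lists of related genes. With 50 added these were 1.01, 0.21 and 0.14, and 12 events were past 1 and 412 past 0.5. The shifted events of *Wdr33* (-0.79), *Mmp12* (0.78), *Caprin1* (-0.88) and *Csf1r* (-0.99) were then no longer past 1. The others stayed past 1, with *Serpina3m* at 1.58. A minimum intensity of 100 left 10257 events, 18 of them past 1, and 4 of the 9 shifted events; *Rapgef5*, *Wdr33*, *Caprin1*, *Mmp12* and *Serpina3m* had no value. The medians were then 1.22 and 0.22, 5 events of the 9 genes were past 0.5, and the exclusion path moved more in 4; fewer events entered these counts. Centring on the median shift of 0.03 gave medians of 1.25 and 0.25. Counted as paths, which list most events a second time, 1863 were past 0.5. No paired analysis was possible because the deposited intensities are pooled over the pairs, and leaving out a replicate was not possible for the same reason.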
